A study of Peromyscus maniculatus and Peromyscus polionotus and Peromyscus maniculatus x Peromyscus polionotus with 18 samples.

Results

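Of 9742 genes counted in F1 hybrids of the deer mouse P. maniculatus and the oldfield mouse P. polionotus, 15 differed at least 2-fold between the brains of the parental species while the 2 parental alleles contributed about equally, on average, inside the hybrids. These 15 genes were chosen by their measured values. A gene had to be listed in both deposited tables, average at least 100 allele counts per hybrid animal, have a ratio of (mean P. polionotus TPM + 1) to (mean P. maniculatus TPM + 1) of at least 1 in either direction on the log2 scale, and have a mean P. polionotus allele share of 45% to 55% over the 6 hybrid animals. TPM is a transcript level corrected for transcript length and scaled to the library total. 3 genes named in the rule (Avp, Atp6v1f and Aldh3a1) were left out, of which only Aldh3a1 met the values. The 15 genes were Wdr46, Lyve1, Rps6kl1, Eid3, Slc1a5 and Tet2, which were higher in P. polionotus, and Evpl, Espl1, Traf3ip2, Tmem107, Exoc8, Hfm1, Elof1, Pik3r5 and Nop9, which were lower.

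Gene regulation can differ between species through DNA beside the gene (cis) or through diffusible products of other genes (trans). In an F1 hybrid both alleles of a gene sit in the same nuclei, so a cis difference appears as unequal expression of the alleles, whereas a trans difference acts on both alleles and leaves them balanced. A share averaged over animals can also come to about 50% where single animals lie far on either side of it, so the values of each animal are given here beside the means.

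The study profiled whole brains of adult males, about 50 to 80 days old, of the pure species P. maniculatus and P. polionotus and of an F1 cross that the labels write with P. maniculatus first, without saying which species was the mother. P. polionotus digs long, complex burrows and P. maniculatus short, simple ones. Every animal had been through 2 pretest trials in sand-filled enclosures and was assigned at random to a burrowing trial or to a control trial, and brains were taken directly afterwards. There were 18 libraries, 3 for each of the 6 combinations of genotype and trial, so that each species had 6 parental libraries and there were 6 hybrid animals. A library was taken to be 1 animal.

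Allele counts summed to between 11415175 and 53906964 per hybrid animal, and P. polionotus alleles held 52.6% to 53.1% of them. The TPM table shows no depth, and the error of a parental value is read from the spread over its 6 libraries. All 5 neuronal marker genes examined were expressed, with summed levels of 1272 to 1440 TPM in P. maniculatus and 1386 to 1526 TPM in P. polionotus, as fits the labelled tissue. Marker genes of microglia summed to 148 to 196 TPM in P. maniculatus and 215 to 267 TPM in P. polionotus. 3 of those 5 genes were higher and 1 was lower in P. polionotus (limma, adjusted p below 0.05). Other marker lists held called genes as well, while 7529 of all 14366 genes tested (52.4%) were called. In P. polionotus 4 of 5 genes of oligodendrocyte precursors were higher (3 with quantile normalization). Of 5 oligodendrocyte genes 3 were higher and 1 lower (1 and 1 with quantile normalization). In astrocytes 2 of 5 and in hindbrain and cord 2 of 6 were lower. The pituitary gene Pomc was lower, at -1.03 (SE 0.17, limma adjusted p = 0.000528) on the log2 scale, while Cga missed the threshold (limma adjusted p = 0.0972). The pineal gene Aanat was lower, at -1.54 (SE 0.09, limma adjusted p = 3.75e-07) on the log2 scale. The part of these cell types in the differences below was not tested. In whole-brain RNA, fewer cells of a type and less RNA per cell cannot be told apart.

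A ratio of at least 2-fold was found for 158 of the 9742 genes (1.62%), and a mean share of 45% to 55% for 4392 genes (45.1%). Among the 158 genes, 128 had a share beyond 45% to 55% in the direction of the species difference and 13 had one in the opposite direction. Aldh3a1 and Avp, left out by name, make up the rest. These counts and the 15 follow from the rule and are given as a description. The median size of the species ratio was 1.12 on the log2 scale among the 15 genes and 1.28 among the 128. The median SD of the allele share between animals was 5.45 percentage points among the 15 genes, 5.68 among the 13, 3.72 among the 128 and 3.32 among all 9742. A wider spread was thus shared with the 13 genes of opposite direction. The median of the mean F1 count was 348.8 for the 15, 360 for the 13, 403.9 for the 128 and 1232 for all, and the part of depth in the spread was not tested.

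**Figure D1:**
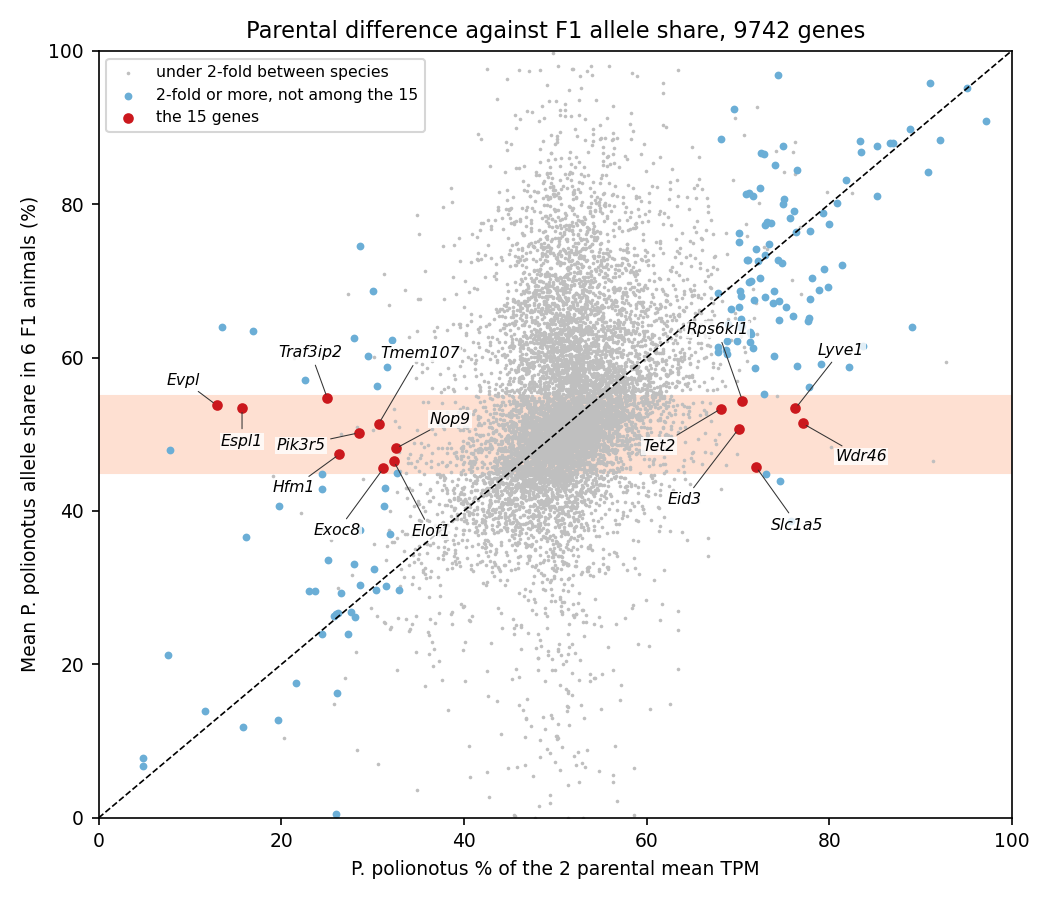
Each point is a gene: the horizontal axis is the P. polionotus percentage of the sum of the 2 parental mean TPM, the vertical axis the mean P. polionotus allele share in 6 F1 animals (%), and the dashed line marks equal values. The 15 genes (red) lie in the shaded band of 45% to 55% while their parental percentages run from 12.9% (Evpl) to 77.1% (Wdr46); 128 of the other genes with a 2-fold ratio lie beyond the band on the side of the species difference.

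The species ranges did not overlap for any of the 15 genes: the highest of 6 libraries of the lower species lay below the lowest of 6 libraries of the higher one in 15 of 15. This is a description, since the ratio chose the genes, and how many other genes have ranges apart was not counted. Across all 14366 genes tested, 7529 (52.4%) differed between the species in the limma fit with Benjamini-Hochberg adjustment, 4688 higher and 2841 lower in P. polionotus. With quantile normalization the split was 3826 higher and 3857 lower. A species difference was therefore common in this table, and one of 2-fold rare. Counts of called genes in the partner families below are to be read against this share of 52.4%.

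Within the hybrids, 48 of the 90 animal values (15 genes in 6 animals) lay at 45% to 55%, and 51 of the 90 95% Wilson intervals, which cover counting error only, held 50%. The share that the parental TPM would give lay inside the interval in 8 of 90 cases, 3 each for Tmem107 and Nop9 and 1 each for Pik3r5 and Slc1a5. For the other 11 genes it lay outside the interval of every animal. The rule itself sets the mean share apart from the parental percentage, so these counts are a description too. The genes fell along a wide scale of agreement between animals. The SD of the share was under 5 percentage points for 7 genes (Wdr46, Tet2, Hfm1, Espl1, Rps6kl1, Eid3 and Exoc8) and over 15 for 3 genes (Nop9, Pik3r5 and Tmem107). In 10 of the 15 genes at least 1 of the 15 pairs of animals had intervals that did not overlap. Such pairs were not counted in other genes, and the intervals narrow as counts rise.

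**Figure D2:**
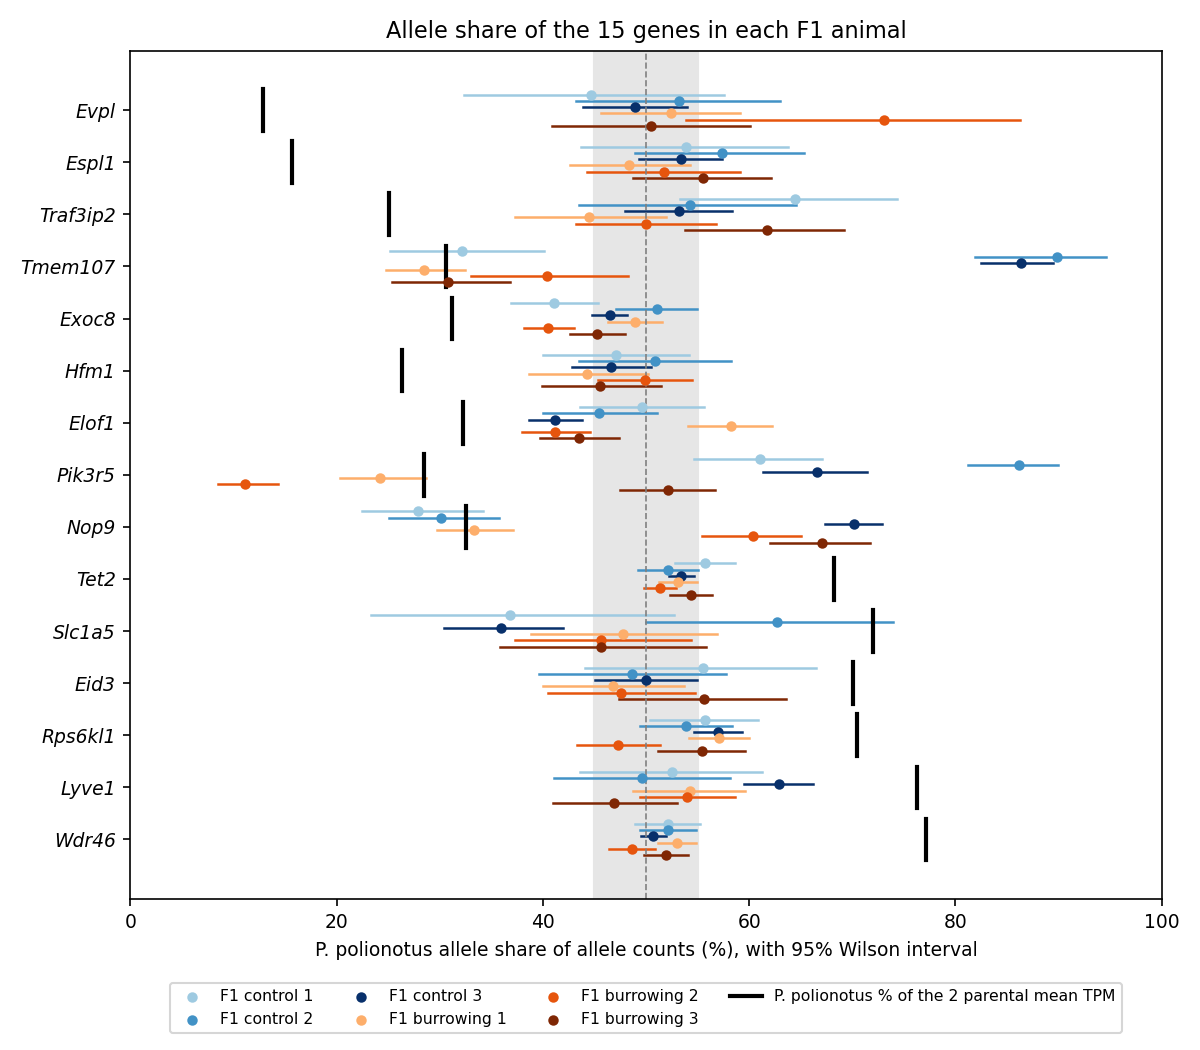
Points are the P. polionotus allele share (%) of each F1 animal with its 95% Wilson interval, for the 15 genes in order of the species ratio; the black bar is the P. polionotus percentage of the 2 parental mean TPM, and the shaded band is 45% to 55%. Wdr46 lies within the band in all 6 animals, whereas Tmem107 and Nop9 have no animal in it.

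Wdr46 and Nop9 both act in the nucleolus in the assembly of the small ribosomal subunit. Wdr46, a scaffold protein of that process, had a lowest, median and highest TPM of 7.63, 9.00 and 17.1 in P. maniculatus and of 30.1, 33.9 and 53.05 in P. polionotus, a log2 ratio of 1.66. Libraries number 2 of both trials stood highest in P. maniculatus (14.9 in the control and 17.1 in the burrowing trial) and the other 4 lay between 7.63 and 9.08. The allele share was 52.1%, 52.1% and 50.7% in control and 52.98%, 48.7% and 51.9% in burrowing animals, from 965 to 6181 counts per animal. Wdr46 was the only one of the 15 genes with every animal at 45% to 55%, and every interval lay far from the parental 77.1%. In the reference assembly of P. maniculatus bairdii it overlaps B3galt4, whose own share was 53.7% ± 3.4 (SD, n = 6) and whose mean TPM was 10.4 in P. maniculatus and 9.81 in P. polionotus, so the neighbour on the same stretch did not show the species ratio.

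Nop9, an RNA-binding protein needed for small-subunit RNA processing, had TPM of 27.7, 29.7 and 34.6 (lowest, median, highest) in P. maniculatus and of 12.4, 14.8 and 17.9 in P. polionotus. Its log2 ratio of -1.003 was the closest to the threshold among the 15. Its mean share of 48.2% ± 19.7 (SD, n = 6) described no animal. Control animals 1 and 2 and burrowing animal 1 had shares of 27.9%, 30.1% and 33.3%, near the parental 32.5%. Control animal 3 and burrowing animals 2 and 3 had shares of 70.2%, 60.4% and 67.0%, on the other side of 50%. In the assembly Nop9 overlaps Cideb, a gene of lipid droplets. Among 36 other small-subunit assembly genes, a family chosen after the 15 genes were known, none reached 2-fold. Of the 36, 19 were higher and 6 lower in P. polionotus (limma, adjusted p below 0.05), against 52.4% of all genes called. With quantile normalization 13 were higher and 7 lower, and the median log2 difference of the 36 was 0.15 against 0.06 for all genes tested.

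Tet2, Eid3 and Elof1 act on chromatin and transcription. Tet2 encodes an enzyme that oxidizes 5-methylcytosine in DNA. Its TPM were 6.56, 7.59 and 11.3 in P. maniculatus and 14.7, 17.3 and 18.9 in P. polionotus (lowest, median, highest), a log2 ratio of 1.01. The highest P. maniculatus library, control 1, still lay below the lowest of P. polionotus. The share was 55.7%, 52.2% and 53.4% in control and 53.1%, 51.3% and 54.4% in burrowing animals, from 1129 to 6303 counts. All 6 values were a little above 50%, and only 2 of the 6 intervals held 50%. The P. polionotus share of all allele counts was itself 52.6% to 53.1%. Of its 2 relatives, Tet1 differed by 0.26 (SE 0.08, limma adjusted p = 0.0148) on the log2 scale, and Tet3 by 0.19 (SE 0.08, limma adjusted p = 0.0696), which missed the threshold. Their mean shares were 51.9% and 46.1%.

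Eid3, a relative of an inhibitor of the acetyltransferase EP300 and a part of the SMC5/6 complex, had TPM of 4.67, 7.02 and 9.04 in P. maniculatus and 13.1, 15.7 and 19.1 in P. polionotus, a log2 ratio of 1.12. Its share ran from 46.8% to 55.6% with a median of 49.3%, and all 6 intervals held 50%. With 72 to 390 counts per animal those intervals were wide, 44.1% to 66.5% in the animal with the fewest counts. Eid3 overlaps Txnrd1 in the assembly. Txnrd1, which codes for a thioredoxin reductase, had a mean TPM of 21.0 in P. maniculatus and 20.1 in P. polionotus, and a share of 50.7% ± 2.1 (SD, n = 6). The other EID genes differed less, Eid2b by 0.35 (SE 0.09, limma adjusted p = 0.00858) and Eid1 by -0.15 (SE 0.05, limma adjusted p = 0.0328) on the log2 scale, while Eid2 missed the threshold at 0.07.

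Elof1, an elongation factor that travels with RNA polymerase II and takes part in transcription-coupled repair, was the most abundant of the 15 in TPM. It had 151.5, 156.8 and 167.4 TPM in P. maniculatus and 67.9, 75.8 and 82.9 TPM in P. polionotus, and the libraries of a species lay close together. Its shares were 49.6%, 45.5% and 41.2% in control and 58.2%, 41.2% and 43.5% in burrowing animals. Burrowing animal 1 stood above the other 5, and its interval of 54.1% to 62.2% did not overlap that of 4 of them. Of 10 partner genes in elongation and transcription-coupled repair, 3 were higher and 2 lower in P. polionotus (limma, adjusted p below 0.05), against 52.4% of all genes called. Their median log2 difference was 0.08.

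Espl1 and Hfm1 are known for chromosome division. Espl1 encodes separase, the protease that cuts cohesin at anaphase. Its level was low in adult brain, with TPM of 1.37, 2.38 and 3.56 in P. maniculatus and 0.339, 0.437 and 0.581 in P. polionotus (lowest, median, highest). Its shares ran from 48.4% to 57.4%, and 6 of 6 intervals, from 91 to 590 counts, held 50%. The share of its pooled counts was 52.9%. Hfm1, a helicase of meiotic crossover formation, had TPM of 4.29, 4.62 and 5.39 in P. maniculatus and of 1.42, 1.68 and 1.98 in P. polionotus. Its share was 47.1%, 50.9% and 46.6% in control and 44.3%, 49.9% and 45.6% in burrowing animals, and 6 of 6 intervals held 50%, with 47.3% in the pooled counts. Of 9 cohesin and separase partners 2 were higher and 1 lower in P. polionotus (limma, adjusted p below 0.05), against 52.4% of all genes called. Of 3 crossover genes tested 2 were higher and 1 lower, among them Mlh3, higher by 1.04 (SE 0.08, limma adjusted p = 2.61e-06) on the log2 scale, opposite to Hfm1. Mlh3 had a mean share of 81.3%.

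Traf3ip2, Pik3r5 and Rps6kl1 belong to signalling pathways. Traf3ip2, the adaptor of the interleukin 17 receptor, had TPM of 4.78, 5.31 and 6.15 in P. maniculatus and 1.31, 1.71 and 2.49 in P. polionotus. Its shares were 64.5%, 54.2% and 53.2% in control and 44.5%, 50.0% and 61.7% in burrowing animals, from 76 to 346 counts, and 4 of 6 intervals held 50%. Its mean share of 54.7% was the closest to the upper limit among the 15. Of 8 partners in the pathway, Il17ra was higher by 0.30 (SE 0.10, limma adjusted p = 0.026) and Traf5 lower, at -1.37 (SE 0.13, limma adjusted p = 1.01e-05), on the log2 scale in P. polionotus. Both are parts of the same route, a receptor chain and an adaptor, and the remaining 6 did not pass.

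Pik3r5, a regulatory subunit of the G protein-activated class IB PI3 kinase, was uniform in P. maniculatus, with TPM of 5.34 to 6.34. The P. polionotus libraries spread from 0.917 to 3.76, with 0.93, 1.42 and 3.76 in the control and 0.92, 3.05 and 3.65 in the burrowing trial. Low and high libraries occurred in both trials. In the hybrids the shares spread as widely, at 61.0%, 86.1% and 66.6% in control and 24.2%, 11.1% and 52.1% in burrowing animals. Intervals did not overlap in 13 of 15 pairs of animals, the most of the 15 genes. The mean of 50.2% therefore joined animals with 8.53% to 14.4% (the interval of burrowing animal 2) and 81.2% to 89.9% (control animal 2). The catalytic partner Pik3cg did not differ between the species by the test, at 0.01 (SE 0.07, limma adjusted p = 0.927). Of 6 class IA subunits 4 were higher and 2 lower in P. polionotus (limma, adjusted p below 0.05), none by 2-fold, against 52.4% of all genes called.

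Rps6kl1, a gene related to the ribosomal S6 kinases, had TPM of 17.9, 19.4 and 21.7 in P. maniculatus and 38.2, 47.7 and 53.6 in P. polionotus, a log2 ratio of 1.22. Its shares lay between 53.9% and 57.1% in 5 animals and at 47.3% in burrowing animal 2, whose interval of 43.3% to 51.3% did not overlap those of 2 others. Only 2 of 6 intervals held 50%. P. polionotus alleles held 52.6% to 53.1% of all allele counts, however, so a share a little above 50% is also the level of the whole library. The interval of burrowing animal 2 lay below that level. Those of burrowing animal 1 and control animal 3, with lower ends of 54.1% and 54.6%, lay above it. Their excess, on the side of the species difference, was therefore larger than the library level. The intervals of the remaining animals held that level. Of 9 S6 kinase genes 5 were higher in P. polionotus and none lower (limma, adjusted p below 0.05), against 52.4% of all genes called. With quantile normalization 3 were higher and 1 lower.

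The remaining 5 genes act in membranes, cilia and the cell surface. Exoc8 codes for a subunit of the exocyst, the complex that tethers secretory vesicles to the plasma membrane. It had TPM of 64.1, 68.3 and 70.6 in P. maniculatus and 27.9, 29.6 and 35.5 in P. polionotus, both narrow. Its shares were 41.0%, 51.0% and 46.5% in control and 49.0%, 40.5% and 45.3% in burrowing animals. The mean of 45.6% was the closest to the lower limit among the 15, on the side of the species difference, and 2 of 6 intervals held 50%. None of the 8 other exocyst subunits reached 2-fold. 3 of them were higher in P. polionotus (limma, adjusted p below 0.05), the largest being Exoc3 at 0.22 (SE 0.05, limma adjusted p = 0.00213), and none lower. With quantile normalization 1 was higher and 3 lower, so the directions of these small differences depended on the scaling. Among all genes tested 52.4% were called in either direction.

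Tmem107 encodes a membrane protein of the ciliary transition zone, the gate at the base of the cilium. Its TPM were 152.6, 109.2 and 82.9 in the control and 142.0, 140.3 and 149.1 in the burrowing libraries of P. maniculatus, and 54.0 to 60.3 in P. polionotus. The 2 lowest P. maniculatus libraries were both from the control trial. In the hybrids, control animal 1 and the 3 burrowing animals had shares of 32.2%, 28.5%, 40.4% and 30.8%, and 3 of these 4 intervals held the parental 30.7%. Control animals 2 and 3 had shares of 89.9% and 86.3%. The mean of 51.3% ± 28.8 (SD, n = 6) lay in the gap between the 2 sets of animals. Summed counts also differed between animals, from 5.38 to 20.1 CPM (counts scaled to the library total), a 3.73-fold range. A small nucleolar RNA, a small nuclear RNA and a pseudogene overlap Tmem107 in the assembly. Of 16 other transition zone genes 6 were higher and 6 lower in P. polionotus (limma, adjusted p below 0.05), against 52.4% of all genes called. A share of 45% to 55% was found for 1 of 13 with allele counts, against 45.1% of the 9742 genes.

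Slc1a5, a transporter of glutamine and other neutral amino acids, had TPM of 1.86, 2.21 and 2.70 in P. maniculatus and 4.81, 5.45 and 6.72 in P. polionotus, a log2 ratio of 1.06. It had the fewest allele counts of the 15, from 38 to 264 per animal. The shares of 36.8%, 62.7% and 36.0% in the control animals came with wide intervals in animals 1 and 2, and the burrowing animals had 47.8%, 45.7% and 45.7%. Control animal 3, with the most counts, had an interval of 30.4% to 41.9%, which excludes 50% on the side opposite to the species difference. Of 5 other SLC1 transporters 1 was higher (Slc1a4, by 0.29, SE 0.04, limma adjusted p = 6.8e-05) and 1 lower (Slc1a1, at -0.18, SE 0.05, limma adjusted p = 0.0101) on the log2 scale.

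Lyve1 encodes a hyaluronan receptor of lymphatic vessels and of macrophages at the borders of the brain. It had TPM of 1.66, 2.23 and 2.66 in P. maniculatus and 6.33, 6.98 and 7.68 in P. polionotus, a log2 ratio of 1.34. Its shares lay between 46.9% and 54.2% in 5 animals and at 62.9% in control animal 3. Only control animal 3 lay above 55%, and its interval of 59.5% to 66.2% remained below the parental 76.3%. Of the 2 border macrophage genes tested, Folr2 was lower in P. polionotus, at -0.44 (SE 0.14, limma adjusted p = 0.0246), and Stab1 differed by 0.02 (SE 0.10). Mrc1, at a mean TPM of 1.10 in P. maniculatus and 0.67 in P. polionotus, was too low to be tested. Of 3 lymphatic endothelial genes 2 were higher, Prox1 by 0.46 (SE 0.08, limma adjusted p = 0.000631) and Flt4 by 0.33 (SE 0.07, limma adjusted p = 0.00226), but Prox1 is also expressed in neurons.

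Evpl, or envoplakin, is a plakin known from the cornified envelope of skin. It had the lowest P. polionotus percentage of the 15, with TPM of 2.82, 3.73 and 7.17 in P. maniculatus and of 0.568, 0.682 and 0.81 in P. polionotus. As for Wdr46, libraries number 2 of both trials stood highest in P. maniculatus (7.17 and 6.48). The shares were 44.6%, 53.2% and 48.9% in control and 52.4%, 73.1% and 50.5% in burrowing animals. The value of 73.1% came from 26 counts, or 0.897 CPM, in an animal where the gene was low. The other 5 animals had 4.49 to 7.84 CPM. Of 4 plakins tested, Ppl, the partner of envoplakin in the envelope, was higher in P. polionotus by 1.06 (SE 0.07, limma adjusted p = 5.02e-07), opposite to Evpl. With every library of one species at least 2-fold from every library of the other, also after adding 1 to each TPM, Evpl and Lyve1 were the 2 genes that stayed in the set.

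**Figure D3:**
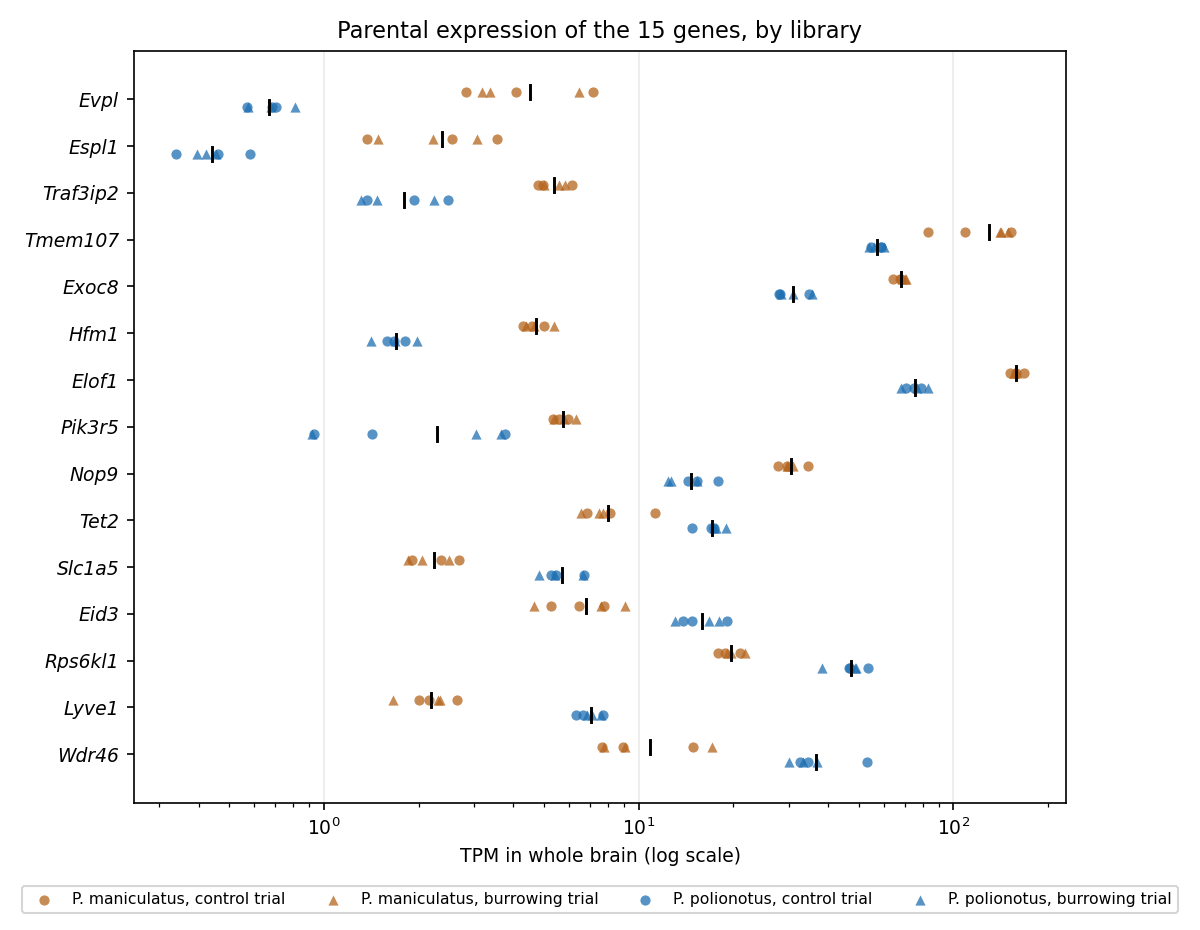
TPM (log scale) of the 15 genes in each of 6 P. maniculatus (brown) and 6 P. polionotus (blue) libraries, circles for the control and triangles for the burrowing trial, with black bars at the species means. The species do not overlap for any gene, and the widest spread within a species relative to its level is that of Pik3r5 in P. polionotus, from 0.917 to 3.76.

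The nearest counted genes on either side show whether a split between animals was that of a single gene. 89 flanking genes with allele counts were examined, up to 3 on each side in the gene order of the reference assembly, and 33 of them had a mean share of 45% to 55%. Of the 87 with a parental value, 4 differed 2-fold between the species. Positions are left out, since no source used here names the build. The 15 genes lie on 12 chromosomes and none on the X. Tmem107 and Pik3r5 share a chromosome, with 33 genes between them.

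Near Tmem107, control animals 2 and 3 stood out again. Pfas had shares of 83.8% and 86.0% in those 2 animals and of 56.5% to 61.5% in the other 4, and Aloxe3 had 86.2% and 86.6% against 70.8% to 78.1%. Slc25a35, which lies between Tmem107 and Pik3r5, had 76.6% and 73.97% against 41.7% to 44.6%. The closer genes Vamp2 and Per1 did not separate these animals, with ranges of 44.6% to 53.1% and 48.8% to 54.0%. The split was thus shared by some of the neighbours and not by others.

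Around Nop9 some neighbours divided the animals as Nop9 did. Nynrin had shares of 35.1%, 37.5% and 37.2% in control animals 1 and 2 and burrowing animal 1, and of 60.2%, 66.9% and 64.2% in control animal 3 and burrowing animals 2 and 3. Nfatc4 and Rabggta placed the same 3 animals highest, at 86.2% to 92.2% against 40.5% to 60.3%, and at 66.5% to 88.1% against 48.8% to 50.6%. Others did not. Dhrs1, the gene adjacent to Nop9, was lowest in control animal 3 (49.8%) and highest in control animal 1 (72.4%), and Tinf2 had 10.5% in control animal 3 against 44.0% to 62.8% in the other 5 animals. Dhrs1 was 2-fold higher in P. polionotus, with a mean TPM of 18.4 in P. maniculatus and 40.7 in P. polionotus, opposite to Nop9.

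Elof1 and Rps6kl1 sat in neighbourhoods with larger splits than their own. Beside Elof1, Acp5 had shares of 93.6% and 95.5% in control animal 1 and burrowing animal 1 and of 46.0% to 48.8% in the other 4. Elavl3 (69.6% and 70.01% against 49.9% to 55.4%) and Ecsit (65.5% and 65.5% against 50.0% to 55.6%) divided the animals in the same way. These are also the 2 animals with the highest Elof1 shares. Znf653 did not separate them, with all 6 animals at 47.2% to 50.7%. Beside Rps6kl1, burrowing animal 2 stood below all others in Arel1 (45.5% against 71.0% to 72.3%), Mlh3 (63.1% against 82.6% to 88.1%), Ylpm1 (43.3% against 56.7% to 59.3%) and Acyp1 (1.45% against 42.8% to 49.4%), as it did in Rps6kl1 itself. In Eif2b2 it lay within the range of the others, at 43.0% against 42.6% to 46.1%.

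Beside Evpl the same burrowing animal 2 had shares of 53.3% in Srp68, 50.3% in Exoc7 and 53.5% in Fbf1. The other 5 animals had 72.9% to 77.0%, 78.3% to 83.6% and 77.0% to 80.6%. In this animal the Evpl share was the highest of the 6, so its direction was opposite to that of these neighbours. Near Pik3r5, Stx8 ranged from 37.5% to 89.2% and Ccdc42 from 39.2% to 85.4%, and burrowing animals 1 and 2 were the 2 lowest in both, as in Pik3r5. Other neighbours placed the same 2 animals highest: Ndel1 had 48.1% and 48.0% against 30.0% to 33.2%, and Gas7 48.5% and 49.3% against 37.7% to 39.1%. Stx8 was 2-fold higher in P. polionotus, with a mean TPM of 7.89 in P. maniculatus and 22.3 in P. polionotus, opposite to Pik3r5.

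**Figure D4:**
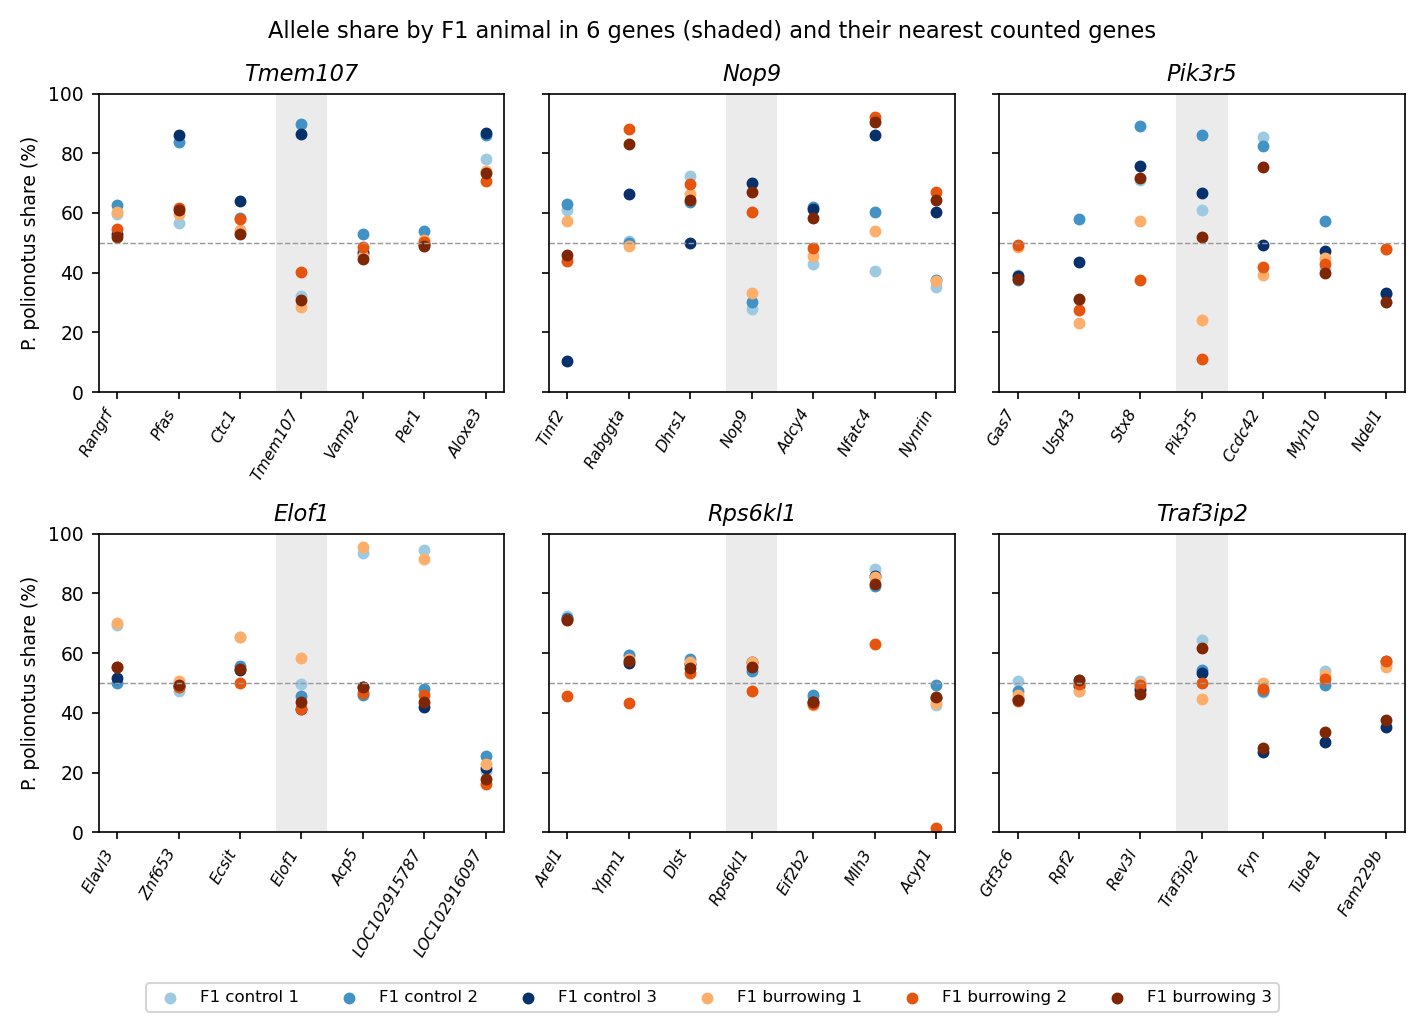
P. polionotus allele share (%) of each F1 animal in 6 of the 15 genes (grey stripe) and in the nearest counted genes, in the gene order of the reference assembly and not to scale. The animals that stand apart in Tmem107, Nop9, Elof1 and Rps6kl1 also stand apart in several neighbours, such as Pfas, Nynrin, Acp5 and Arel1.

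Beside Traf3ip2, Fyn, Tube1 and Fam229b had shares of 27.0%, 30.3% and 35.2% in control animal 3 and of 28.2%, 33.5% and 37.7% in burrowing animal 3, below all others, whereas Traf3ip2 itself was not low in those animals. Beside Exoc8, Tsnax had 33.9% and 34.8% in control animals 1 and 3 and 48.3% to 50.8% in the other 4. Gnpat (44.1% and 43.5% against 52.7% to 55.3%), Trim67 and Egln1 also placed these animals lowest. Arv1 and Sprtn did not, and Exoc8 itself did not follow that order. Near Tet2, control animal 2 was lowest in Gstcd (45.7% against 60.5% to 64.2%) and Bdh2 (44.7% against 55.6% to 63.1%). It was highest in Tacr3, at 54.3%, and had 52.2% in Tet2 itself.

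Several genes lay among steadier neighbours. Hfm1 was at 47.4% between genes far from balance: Znf644 at 88.1%, Cdc7 at 88.5% and Tgfbr3 at 84.7%, each with an SD under 2.5 percentage points. Likewise Espl1, at 53.4%, lay near Pfdn5 at 80.3%, Rarg at 86.3% and Znf740 at 93.4%, but also near Csad at 46.4% and Sp1 at 60.3%. The parental ratios of these unbalanced neighbours were small, from -0.17 for Tgfbr3 to 0.60 for Pfdn5 on the log2 scale, so these neighbours had unequal alleles and parental levels less than 2-fold apart. Around Eid3 and Wdr46 the adjacent genes Txnrd1 and Pfdn6 had shares of 50.7% and 47.8%, and around Lyve1 Rnf141 had 50.8%.

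Whether the trial changed these genes is independent of the rule, and 5 tests addressed it. In P. maniculatus, 1 of 14366 genes was called by limma (0.00696%), in P. polionotus 0 (0%; 446 at an unadjusted p under 0.05), and for the difference between the species' responses 0 (0%; 415 at an unadjusted p under 0.05). In the hybrids, edgeR's quasi-likelihood test called 0 of 11928 genes for the summed counts (0%; 90 at an unadjusted p under 0.05) and 27 for the allele ratio (0.226%). DESeq2 called 2 and 60. None of the 15 genes was called in any of the 5 tests by any of these tools. The log2 differences of the 15 genes ran from -0.22 to 0.37 in P. maniculatus, from -0.22 to 0.23 in P. polionotus and from -0.57 to 0.45 in the summed counts of the hybrids.

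The 2 largest differences between trials were in the allele ratio of Pik3r5 and Tmem107. For Pik3r5 the 3 control animals (61.0% to 86.1%) lay above the 3 burrowing animals (11.1% to 52.1%) and the ranges did not overlap. The log2 difference of the allele ratio, burrowing minus control, was -2.87 (SE 0.99, edgeR adjusted p = 1). For Tmem107 it was -2.58 (SE 1.19, edgeR adjusted p = 1), and control animal 1 lay among the burrowing animals. Without that animal it was -3.88 (SE 0.33, edgeR adjusted p = 0.0799). That animal was singled out because it lay with the burrowing animals, so the larger difference follows from the choice. Control animals 2 and 3 also stood apart in the neighbours Pfas and Slc25a35. Tmem107 also had the widest trial difference of the 15 in the TPM of P. maniculatus, 0.37 (SE 0.16, limma adjusted p = 1) on the log2 scale, burrowing minus control. Without control library 3 that difference was 0.15, and without control library 1 it was 0.59. For Wdr46 and Tet2, the genes with the most allele counts, the log2 difference in the allele ratio was -0.03 (SE 0.09) and -0.05 (SE 0.08).

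**Figure D5:**
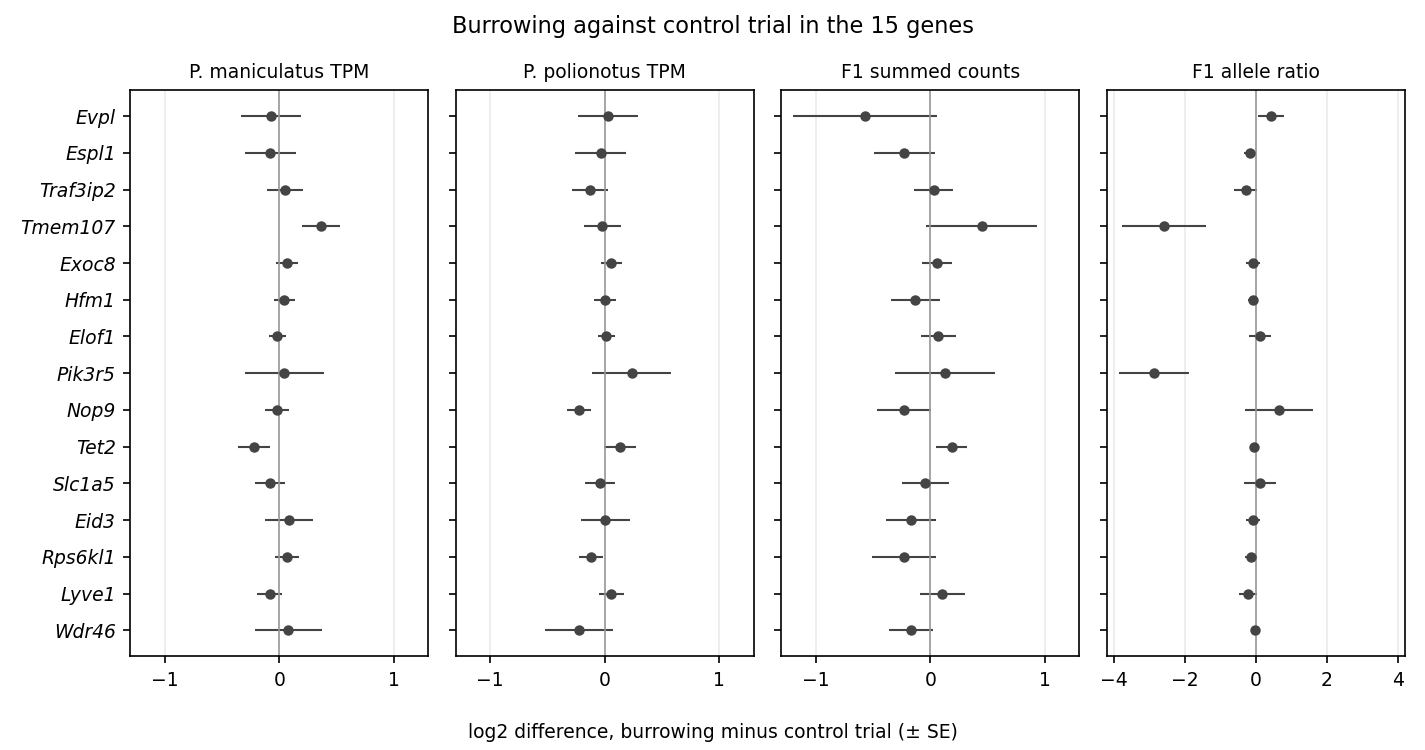
Points are log2 differences, burrowing minus control trial, with their SE, for the 15 genes in the TPM of each species, the summed allele counts of the F1 animals and the ratio of P. polionotus to P. maniculatus alleles (on a wider axis). No gene passed an adjusted p of 0.05; Pik3r5 (-2.87) and Tmem107 (-2.58) lie farthest from 0 in the allele ratio.

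Target genes of known regulators were also examined, in lists chosen with earlier results of these data known. None of the 15 genes was in any of the 12 lists, among them targets of the glucocorticoid receptor, NRF2, interferon, the clock, hypoxia and p53. The lists held 184 tested entries, where a gene on several lists is counted in each. The median species difference of a list ran from -0.11 (clock) to 0.54 (germline genes silenced by DNA methylation, with only 6 tested), against 0.06 for all genes. Of the 184 entries 5 reached 2-fold by limma, beside 1.62% of the 9742 genes by the ratio of mean TPM. With quantile normalization the medians ran from -0.14 to 0.47 against -0.0045 for all genes.

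Several genes stood just outside the rule. Pepd, Mrpl36 and Apoe had balanced shares and log2 ratios of 0.995, 0.99 and 0.98, next to Nop9, Tet2 and Pik3r5 just inside at -1.003, 1.01 and -1.03. Apoe, the main apolipoprotein of the brain, was the most abundant of these, with a mean TPM of 2250 in P. maniculatus and 4442 in P. polionotus. At the lower share limit Znf444, Thnsl2 and Il33 had 44.97%, 44.9% and 43.9%, against 45.6% for Exoc8 just inside. At the upper limit Enthd2 had 55.3%, against 54.7% for Traf3ip2. Under the count minimum, LOC102910272 with a mean of 62.3 counts, LOC102918264 with 48 and Mamstr with 46.8 met the other criteria.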

How the data were processed

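Whole-brain RNA of 18 libraries was measured as stranded poly(A) RNA-seq. For the 12 parental libraries the authors deposited TPM, and for the 6 hybrids whole-number counts per gene and allele. STAR 2.4.2a is named as the aligner, per the submitters' processing notes. No source used here gives the build, the annotation, the reference for each species, the method behind TPM or that of allele assignment. The counts hold only reads given to an allele, so the 2 tables may differ in the reads they hold. The columns BW and PO were taken as P. maniculatus and P. polionotus from the labels. 1 row naming no gene (0.789% to 2.48% of TPM) was left out.

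Symbols were matched without regard to case, giving 10656 genes in both tables of 20732 and 11928 rows. Trial and species contrasts on log2(TPM + 1) used limma 3.58.1 over 14366 genes with a mean TPM of at least 1, all 12 libraries in 1 fit. This scale understates the change of low genes. F1 counts used edgeR 4.0.16 with TMM, and DESeq2 1.42.0 as an alternative, in R 4.3.3. Benjamini-Hochberg adjustment ran over all genes, with a threshold of 0.05. The SE of an edgeR estimate is its size divided by the square root of F. P-values measure only the spread between these animals. The fits were tested on simulated data. Depth is given only by the counts, and Wilson intervals cover counting error at 95%.

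The members and lists were chosen with earlier results of these data known, and the partner families after the members were known. All members are named, with some of the genes nearest to the limits of the rule. Gene order and overlaps come from RefSeq's table for assembly HU_Pman_BW_mat_3.1, which held all 15; no sequences were used here. Alternatives changed the pseudocount, scaling, share limits, count minimum and libraries.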

Additional observations from a re-analysis of the deposited data

Results flagged for a closer look

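For each of the 15 genes, the 6 values of each species' TPM, of the F1 share and of the F1 counts scaled to library total (CPM) were searched for 1 animal far from the others (a gap to the nearest value, relative to the whole range, above Dixon's 95% critical value). Of 60 sets of 6 values, 6 were picked out, and chance picks out about 1 in 20. 3 of the 6 were F1 burrowing animal 2: the Evpl share of 73.1% against 44.6% to 53.2% in the other animals, the Rps6kl1 share of 47.3% against 53.9% to 57.1%, and 7.10 CPM of Traf3ip2 against 6.42 to 6.66. The Evpl share rests on 26 counts. The Rps6kl1 value goes with low shares of its neighbours Arel1 (45.5%) and Acyp1 (1.45%) in the same animal. Pik3r5 had 6.10 CPM in F1 control animal 3 against 15.2 to 20.2 in the others. Tet2 stood high in P. maniculatus control library 1, at 11.3 TPM against 6.56 to 8.08. Wdr46 stood high in P. polionotus control library 2, at 53.05 TPM against 30.1 to 36.8. The species ranges of Tet2 and Wdr46 did not overlap with these libraries included.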

How the results depend on the processing

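The number of genes that met the rule depended on its limits. It was 30 with a pseudocount of 0.1 TPM and 5 with one of 5, 5 with share limits at a narrower distance from 50%, 1 (Wdr46) with every animal at 45% to 55%, 5 with a higher count minimum, and 2 with every library of the species 2-fold apart. It was 17 with median TPM, 16 with quantile normalization, 13 with pooled counts, 18 with a mean count of 20, 19 in the control trial alone (8 of the 15) and 20 in the burrowing trial alone (11 of the 15). Leaving out each library or animal in turn gave 13 to 18, and Espl1, Hfm1, Eid3, Lyve1 and Wdr46 stayed in all 18 of these settings. Nop9 stayed in 11 of the 18, Pik3r5 in 12 and Tmem107 in 13. Under 11 other settings, not counting that with every library 2-fold apart, Lyve1 stayed in 5, the fewest of the 15. Its share of pooled counts was 56.3%, outside the rule, as were those of Rps6kl1 (55.2%), Elof1 (44.8%) and Slc1a5 (43.3%). Wdr46 stayed in all 11. Of 870 recomputed species ratios and mean shares, 858 moved by less than the replicate SD and 12 ratios by more, and no ratio changed direction. Many of the 870 could not move. A share does not depend on TPM, a ratio does not depend on the F1 animals, and a changed limit alters neither. A share was judged against its own SD between animals. The Tmem107 share thus counted as unmoved at 69.5% in control and 33.2% in burrowing animals (SD 28.8 percentage points over all 6).

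None of the 15 genes was called for the trial under any alternative that tested it; Evpl and Espl1 were too low to be tested where P. polionotus was fitted alone. Of the trial differences with the 3 smallest p in each test, 2 changed sign when 1 animal was left out: Tmem107 in F1 summed counts (-0.13 without burrowing animal 1, 0.84 at most) and Lyve1 in P. maniculatus (0.023 without burrowing library 2, -0.14 at least); neither was called. With the replicate block, 0 of the 15 were called. Whether replicate numbers pair the libraries is not known for P. maniculatus. There same-numbered deviations correlated at 0.254, 0.126 and 0.0994, and each library matched its own number best. In the other genotypes same-numbered deviations correlated at -0.584 to 0.186, with no common direction. Promoter motifs and protein identity were not run.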
